A study of Homo sapiens with 10 samples.

Results

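Cells write and erase chemical marks on histones and DNA with several families of enzymes, and 50 genes encoding such enzymes outside the Polycomb complexes were followed here by RNA-seq in PC3 cells. The genes were chosen by name, as the main histone methyltransferases, histone demethylases, histone deacetylases, acetyltransferases, DNA methyltransferases and TET dioxygenases, with earlier results of these data known. All 50 were matched by symbol among the 57445 gene identifiers of the count tables, and 48 of them passed the filter on low counts and were tested. PC3 is an established line from a human prostate cancer that had spread to bone. The 5 groups, of 2 libraries each, were PC3 cells stably expressing a Scramble short hairpin RNA, RNF2 shRNA1 or RNF2 shRNA2, and PC3 cells given PRT4165 or GW-516 for 48 hours. All were grown in serum-containing DMEM/F-12 medium. RNF2 catalyses the ubiquitination of histone H2A within PRC1, a Polycomb complex of gene silencing, and PRT4165 is known to inhibit this reaction. The labels name GW-516 by its code alone, and the file headers name those libraries Th4 and begin every library name with MDV3 where the labels have PC3. Whether these are the same compound and cells is not stated, and the labels were followed. They give no dose, no vehicle-treated group, and no word on whether the compound-treated cells carried a hairpin, so each compound was compared with Scramble, and what the vehicle, the vector or separate culture did cannot be told apart from what the compound did. All comparisons with Scramble share the same 2 Scramble libraries, so a chance deviation of those libraries enters each of them.

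Methylation of histone H3 at lysine 4 and lysine 36 is found on active genes, at lysine 79 on transcribed genes, and at lysine 9 on silenced chromatin. Methyltransferases write these marks and demethylases remove several of them, and a demethylase can act on different positions. Acetyltransferases add acetyl groups that go with open chromatin, and deacetylases remove them. DNMT enzymes methylate cytosine in DNA and TET enzymes oxidize that methyl group. Several of these marks meet the Polycomb system directly, since KDM6A and KDM6B remove the lysine 27 methylation placed by Polycomb repressive complex 2, and KDM7A acts on lysine 9 and lysine 27 methylation.

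Promoter sequence is shown for 4 members on which the results below turn, KDM7A and KDM6A, which were higher than Scramble in every other group, and SUV39H2 and NSD2, which were lowest with GW-516. Each window is the 250 bases before the start of a transcript in RefSeq's table (GRCh38.p14), written 5′ to 3′ on the gene's own strand, in lower case with motif matches on either strand in capitals. The windows are chr7:140176984-140177233, reverse strand, for KDM7A, chrX:44872938-44873187, forward strand, for KDM6A, chr10:14878616-14878865, forward strand, for SUV39H2, and chr4:1871143-1871392, forward strand, for NSD2.
KDM7A: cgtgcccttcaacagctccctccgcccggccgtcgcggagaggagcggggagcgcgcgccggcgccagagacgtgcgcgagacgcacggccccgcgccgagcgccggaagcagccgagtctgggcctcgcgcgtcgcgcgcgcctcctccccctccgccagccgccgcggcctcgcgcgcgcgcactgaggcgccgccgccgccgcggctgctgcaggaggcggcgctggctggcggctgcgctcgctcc
KDM6A: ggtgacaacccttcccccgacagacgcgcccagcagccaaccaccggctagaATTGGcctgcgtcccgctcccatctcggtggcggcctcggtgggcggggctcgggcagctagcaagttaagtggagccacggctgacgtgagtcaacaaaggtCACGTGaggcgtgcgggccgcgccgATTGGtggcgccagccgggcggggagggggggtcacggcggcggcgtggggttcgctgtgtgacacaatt
SUV39H2: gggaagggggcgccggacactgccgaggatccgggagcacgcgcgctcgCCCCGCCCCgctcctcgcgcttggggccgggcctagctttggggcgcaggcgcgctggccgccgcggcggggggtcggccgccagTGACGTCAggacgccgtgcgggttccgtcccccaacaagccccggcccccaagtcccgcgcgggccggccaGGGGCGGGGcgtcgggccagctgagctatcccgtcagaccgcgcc
NSD2: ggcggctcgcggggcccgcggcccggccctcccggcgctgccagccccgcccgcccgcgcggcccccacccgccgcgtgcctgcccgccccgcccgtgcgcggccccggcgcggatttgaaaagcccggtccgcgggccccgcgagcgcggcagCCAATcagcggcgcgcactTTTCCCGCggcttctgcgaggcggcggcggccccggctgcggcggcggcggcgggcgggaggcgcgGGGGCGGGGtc
The KDM7A window had none of the searched letters and held 50 CpG dinucleotides, the sites that DNMT enzymes methylate. The KDM6A window held an E-box (CACGTG) and 2 CCAAT boxes (CCAAT, here read as its reverse complement) and 27 CpG. The SUV39H2 window held a cyclic AMP response element (TGACGTCA), 2 GC boxes of SP1 type (GGGGCGGGG) and 38 CpG. The NSD2 window held an E2F-type site (searched as TTTCCCGC, TTTGGCGC, TTTCGCGC or TTTGCCGC), a GC box of SP1 type, a CCAAT box and 50 CpG. RefSeq's table held 74 such windows for 45 of the 50 members, since a gene can have several starts, and 35116 windows in all. An E2F-type site was found in 2.7% of member windows and 2.79% of all windows, a cyclic AMP response element in 1.35% and 1.65%, a GC box of SP1 type in 17.6% and 15.1%, and a CCAAT box in 25.7% and 32%. An E-box was found in 17.6% of member windows, in 11 members, and in 6.34% of all windows. Member windows had a median of 68.4% G and C against 58% over all windows, and a median ratio of observed to expected CpG of 0.744 against 0.558. These are descriptions of letters in the windows, and no binding or methylation was measured.

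The libraries held between 65877850 and 108380198 counts, with 23340 to 25920 genes detected. Levels below are in CPM, counts scaled to library size and normalized for composition by the trimmed mean of M-values (TMM), and a gene is called higher or lower at an edgeR adjusted p below 0.05 over the 18478 genes tested. RNF2 stood at 30.6 and 28.3 CPM in the Scramble libraries and at 12.1 and 11.96 CPM in RNF2 shRNA1 (log2 -1.29, SE 0.059, edgeR adjusted p = 2.3e-15). Its level was 33.5 and 35.3 CPM in the libraries labelled RNF2 shRNA2 (log2 0.23, edgeR adjusted p = 0.00103), while BMI1, another PRC1 subunit gene, fell from 252 and 255 to 53.0 and 61.6 CPM (log2 -2.14, edgeR adjusted p = 9.8e-12). The targeted gene thus went against the label of that group, and every direction drawn from it below is for the libraries labelled RNF2 shRNA2. Epithelial markers of PC3 (KRT8, KRT18, KRT19, EPCAM and CDH1) summed to 1158 to 1590 CPM per library. Leukocyte markers (PTPRC, CD3E, CD68 and CD14) summed to at most 0.805 CPM. Stromal and endothelial markers (COL1A1, COL3A1, DCN and VWF) summed to 15.9 to 47.5 CPM, nearly all of it COL1A1, a collagen gene. COL1A1 stood at 26.3 and 27.1 CPM in Scramble, 18.8 and 19.8 in RNF2 shRNA1, 15.2 and 16.7 in the libraries labelled RNF2 shRNA2, 25.3 and 29.7 with PRT4165 and 46.9 and 46.1 with GW-516, and its part in the members' values was not tested. Replicates differed little within GW-516, RNF2 shRNA1 and Scramble, with a chi-square per degree of freedom over genes of 2.15 to 2.20, against 6.89 in PRT4165 and 12.2 in the libraries labelled RNF2 shRNA2. Both ends of a fragment were counted, which roughly doubles these values. Halved, they were 1.075 to 1.099 in the first 3 groups, near the value of 1 from counting noise alone. The halved values were 3.44 in PRT4165 and 6.11 in the libraries labelled RNF2 shRNA2. Nothing in the labels says that replicate libraries are separate cultures, so p-values here reflect the spread of these samples alone, and that spread may be technical. For that reason counts of called members are also given from a fit in which each near-identical pair (GW-516, RNF2 shRNA1 and Scramble) became 1 summed sample. In that fit these groups have 1 sample each, and all of the spread comes from the PRT4165 pair and the pair labelled RNF2 shRNA2, so a lone sample is assumed to vary as those pairs do, which differed more.

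The member genes were expressed over a wide range. Mean levels over the 10 libraries ran from 4.23 to 372 CPM among the 48 tested members, with a median of 62.6 CPM. Per kilobase of summed exon length, levels in Scramble ran from 1.28 CPM per kb for KMT2A, an H3K4 methyltransferase, to 69.9 CPM per kb for HDAC1, a class I deacetylase, with a median of 6.17 CPM per kb. KDM1A, the H3K4 demethylase also known as LSD1, followed at 58.1 CPM per kb, then DNMT1, the maintenance DNA methyltransferase, at 42.7, KDM1B at 24.6 and HDAC2 at 19.4 CPM per kb. The lowest levels after KMT2A belonged to SUV39H1, TET1, TET2 and HDAC6. Fewer cells expressing a gene and less RNA per cell cannot be told apart in these bulk libraries.

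**Figure D1:**
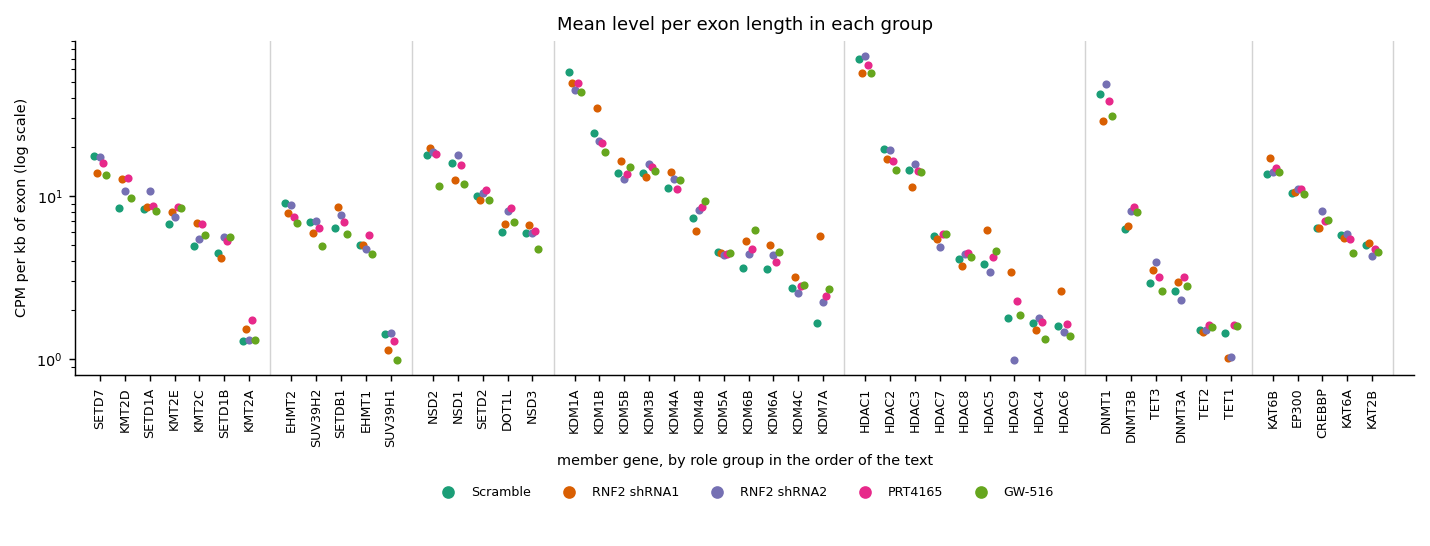
Mean level of each of the 48 tested members in CPM per kb of summed exon length (vertical axis, log scale), by role group from left to right, H3K4, H3K9, and H3K36 and H3K79 methyltransferases, demethylases, deacetylases, DNA-modifying enzymes and acetyltransferases; each point is the mean of 2 libraries of 1 group. HDAC1, KDM1A and DNMT1 stand highest in Scramble and KMT2A lowest, and the 5 groups lie apart for members such as KDM7A and HDAC9.

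The 2 untested members were KMT2B and KAT2A. KMT2B (ENSG00000272333.1, chr19:36208921-36229779, forward strand, GRCh37), an H3K4 methyltransferase, had 0 or 1 count per library and 2 counts in all. Of its 8470 annotated exon bases 8469 lay on the same strand within another identifier of the annotation, ENSG00000105663.10, which had 15 to 44 counts per library. KAT2A (ENSG00000108773.6, chr17:40265126-40273376, reverse strand, GRCh37), the acetyltransferase also known as GCN5, had 0 counts in every library, where 3 counts amount to 0.0277 to 0.0455 CPM. Of its 3769 exon bases 405 (10.7%) were shared with an identifier that was also at 0. These values are those of the count tables, and the part of the annotation overlap in them was not tested.

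In RNF2 shRNA1, 36 of the 48 tested members passed the threshold, 21 higher and 15 lower, against a background of 54.7% of all genes tested (26.2% higher, 28.6% lower). In the libraries labelled RNF2 shRNA2, 29 passed, 20 higher and 9 lower, against 42.1% (21.1% higher, 21.0% lower). With PRT4165, 28 passed, 21 higher and 7 lower, against 41.6% (19.9% higher, 21.7% lower). With GW-516, 33 passed, 14 higher and 19 lower, against 55.5% (26.5% higher, 29.0% lower). The members' shares called were 75%, 60.4%, 58.3% and 68.8% in that order. Among the 9605 genes averaging 10 CPM or more, which have counts like the members', 74.6%, 58.7%, 60.2% and 74.5% were called, beside 35, 29, 28 and 32 of the 47 members at that level, so the share called was near that of other well-expressed genes. With the near-identical pairs summed, 26 members were called in RNF2 shRNA1 (17 higher, 9 lower), 19 in the libraries labelled RNF2 shRNA2 (13 higher, 6 lower), 17 with PRT4165 (13 higher, 4 lower) and 25 with GW-516 (11 higher, 14 lower). Both libraries of 1 group lay above both of the other for 42, 39, 41 and 41 members, beside 77.8%, 68.6%, 68.2% and 78.8% of all genes tested.

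Most changes were small. At least 1.5-fold changes among called members numbered 4 in RNF2 shRNA1, 1 in the libraries labelled RNF2 shRNA2, 1 with PRT4165 and 3 with GW-516, where 18.6%, 10.3%, 9.28% and 17.1% of all genes tested were called at that size. KDM7A in RNF2 shRNA1 was the only called member at 2-fold or more against Scramble, a size called in 8.57% of all genes there, 4.87% in the libraries labelled RNF2 shRNA2, 4.76% with PRT4165 and 9.05% with GW-516. In the last 3 comparisons the edgeR count of members at 2-fold or more was 0 at the adjusted threshold and also at an unadjusted p below 0.05. The median change over the members was log2 0.029, 0.059, 0.10 and 0.0044 in the 4 comparisons, against -0.015, 0.0086, -0.012 and -0.0025 over all genes tested.

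**Figure D2:**
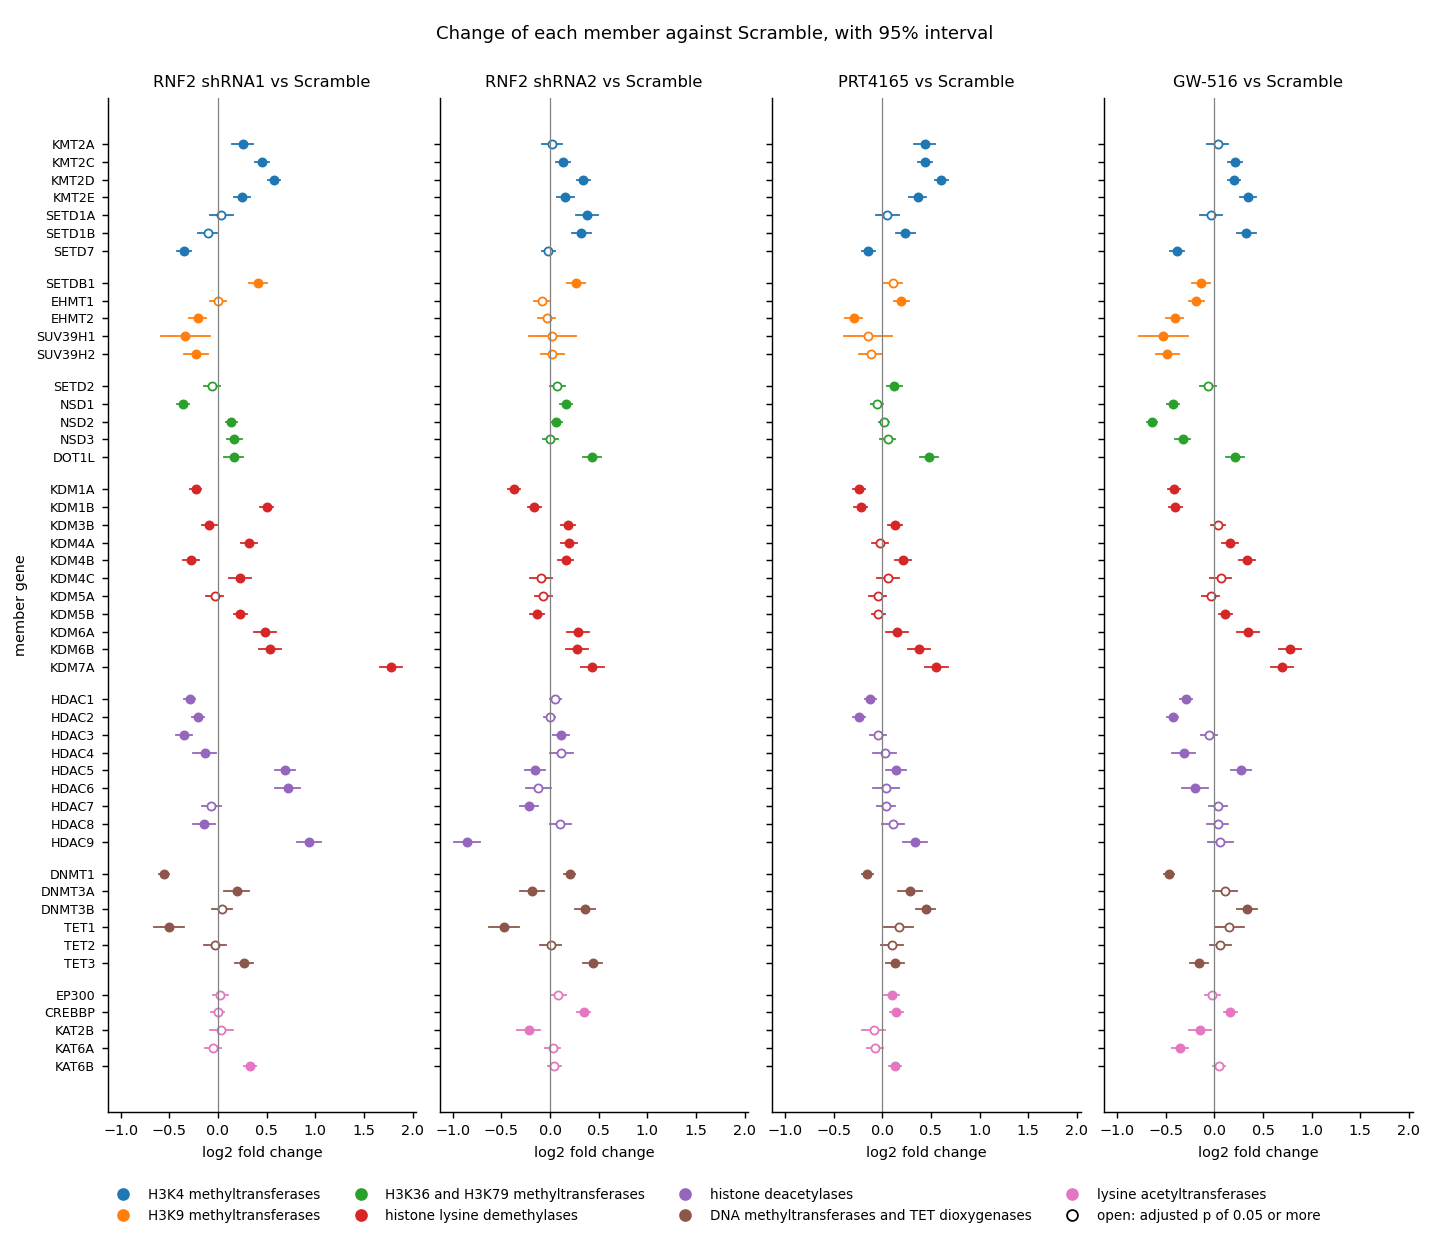
Log2 fold change of each tested member against Scramble (horizontal axis) in 4 panels, 1 per group, with 95% intervals from edgeR; colours mark role groups and open points an adjusted p of 0.05 or more. KDM7A in RNF2 shRNA1 stands farthest from 0 at 1.78, and all 5 H3K9 methyltransferases lie below 0 with GW-516.

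Among the H3K4 methyltransferases, the large KMT2 genes were mostly higher and SETD7 mostly lower. Of 7 tested, 4 rose and 1 fell in RNF2 shRNA1, 5 rose and 0 fell in the libraries labelled RNF2 shRNA2, 5 rose and 1 fell with PRT4165, and 4 rose and 1 fell with GW-516. KMT2D (ENSG00000167548.10, chr12:49412758-49453557, reverse strand, GRCh37), a main H3K4 monomethyltransferase of enhancers, stood at 177 and 172 CPM in Scramble, 261 and 258 in RNF2 shRNA1, 214 and 227 in the libraries labelled RNF2 shRNA2, 263 and 268 with PRT4165 and 197 and 204 with GW-516. Both Scramble libraries lay below all 8 others. The rise was 1.52-fold with PRT4165 (log2 0.61, SE 0.032, edgeR adjusted p = 1.0e-13) and 1.49-fold in RNF2 shRNA1 (log2 0.58, edgeR adjusted p = 1.1e-13), and smaller in the libraries labelled RNF2 shRNA2 (log2 0.34) and with GW-516 (log2 0.20).

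KMT2C, the closest relative of KMT2D, was called higher in each comparison, by log2 0.45 in RNF2 shRNA1, 0.14 in the libraries labelled RNF2 shRNA2, 0.44 with PRT4165 and 0.21 with GW-516. Parts of KMT2C have near-identical copies elsewhere in the genome, which makes its counts uncertain, and the call in the libraries labelled RNF2 shRNA2 was lost with the pairs summed. KMT2A, the gene rearranged in many acute leukaemias, stood at 27.9 and 28.5 CPM in Scramble and 38.9 and 37.4 with PRT4165 (log2 0.44, edgeR adjusted p = 1.4e-07), rose less in RNF2 shRNA1 (log2 0.25), and stood at log2 0.021 and 0.032 in the libraries labelled RNF2 shRNA2 and with GW-516, neither called. KMT2E, which reads H3K4 methylation and for which methyltransferase activity has not been shown clearly, stood at 61.2 and 62.5 CPM in Scramble and 78.8 and 78.4 with GW-516, 1.27-fold higher (log2 0.35, SE 0.041, edgeR adjusted p = 8.6e-08). KMT2E was also called higher with PRT4165 (log2 0.36), in RNF2 shRNA1 (log2 0.25) and in the libraries labelled RNF2 shRNA2 (log2 0.16). The last of these calls was lost without Scramble replicate 1 and with the pairs summed. SETD1A and SETD1B, catalytic subunits of the SET1 complexes that place H3K4 trimethylation at promoters, both rose in the libraries labelled RNF2 shRNA2 (log2 0.38 and 0.32), and neither was called in RNF2 shRNA1 (log2 0.036 and -0.11). SETD1B was also called higher with PRT4165 (log2 0.24) and with GW-516 (log2 0.33), and SETD1A was called with neither compound. SETD7, an H3K4 monomethyltransferase that also methylates other proteins, fell by 0.35 on the log2 scale in RNF2 shRNA1, by 0.14 with PRT4165 and by 0.38 with GW-516. The PRT4165 call of SETD7 was lost without Scramble replicate 2 and with the pairs summed.

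The H3K9 methyltransferases, which write the mark of silenced chromatin, were all called lower with GW-516. Of 5 tested, 0 rose and 5 fell there, with a median of log2 -0.41, beside 29.0% of all genes and 46.6% of genes at 10 CPM or more called lower and an all-gene median of log2 -0.0025. In RNF2 shRNA1 1 rose and 3 fell, in the libraries labelled RNF2 shRNA2 1 rose and 0 fell, and with PRT4165 1 rose and 1 fell. SUV39H1 (ENSG00000101945.12, chrX:48553945-48567403, forward strand, GRCh37), which trimethylates H3K9 in constitutive heterochromatin, was the tested member with the lowest CPM, at 5.07 and 4.55 CPM in Scramble, 4.15 and 3.46 in RNF2 shRNA1, 4.66 and 5.07 in the libraries labelled RNF2 shRNA2, 4.29 and 4.41 with PRT4165 and 3.42 and 3.27 with GW-516. The GW-516 libraries were the lowest of the 10, below the lower RNF2 shRNA1 library by a small margin. The fall with GW-516 was 1.44-fold (log2 -0.52, SE 0.121, edgeR adjusted p = 6.9e-04).

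Its paralog SUV39H2 (ENSG00000152455.11, chr10:14920819-14946314, forward strand, GRCh37), whose promoter window is printed above, stood at 24.8 and 24.7 CPM in Scramble, 21.4 and 21.02 in RNF2 shRNA1, 24.4 and 25.9 in the libraries labelled RNF2 shRNA2, 23.8 and 21.9 with PRT4165 and 17.2 and 18.3 with GW-516. The GW-516 libraries lay below all others, a 1.398-fold fall (log2 -0.48, SE 0.059, edgeR adjusted p = 1.4e-07). EHMT2, also known as G9a, the H3K9 dimethyltransferase of euchromatin, stood at 63.5 and 68.6 CPM in Scramble, 53.8 and 54.1 with PRT4165 and 49.3 and 50.1 with GW-516, and was lower by 1.22-fold with PRT4165 (log2 -0.29, SE 0.043, edgeR adjusted p = 4.2e-06) and 1.33-fold with GW-516 (log2 -0.41, edgeR adjusted p = 9.8e-09). EHMT1, its partner in the same enzyme complex, rose with PRT4165 (log2 0.20) and fell with GW-516 (log2 -0.19). SETDB1, which silences retroelements with KAP1, rose in RNF2 shRNA1 (log2 0.41) and in the libraries labelled RNF2 shRNA2 (log2 0.26). The GW-516 calls of SETDB1 (log2 -0.13) and EHMT1 were lost with the pairs summed, that of SETDB1 also in DESeq2 and without either Scramble library, and the RNF2 shRNA1 calls of SUV39H1, SUV39H2 and EHMT2 were lost with the pairs summed.

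The H3K36 methyltransferases of the NSD family were lower with GW-516, and DOT1L, the H3K79 methyltransferase, was higher. Of 5 tested in this group, 3 rose and 1 fell in RNF2 shRNA1, 3 rose and 0 fell in the libraries labelled RNF2 shRNA2, 2 rose and 0 fell with PRT4165, and 1 rose and 3 fell with GW-516. The shares of all genes called higher and lower were 26.2% and 28.6%, 21.1% and 21.0%, 19.9% and 21.7%, and 26.5% and 29.0% in that order. NSD2 (ENSG00000109685.13, chr4:1873151-1983934, forward strand, GRCh37), an H3K36 dimethyltransferase, stood at 354 and 353 CPM in Scramble, 389 and 389 in RNF2 shRNA1, 369 and 369.7 in the libraries labelled RNF2 shRNA2, 357 and 358 with PRT4165 and 226 and 228 with GW-516. The GW-516 libraries stood far below the other 8, whose range was narrow. The fall was 1.56-fold (log2 -0.64, SE 0.026, edgeR adjusted p = 3.4e-16), while PRT4165 gave log2 0.016, 95% interval -0.037 to 0.069. The NSD2 call in the libraries labelled RNF2 shRNA2 (log2 0.064, edgeR adjusted p = 0.0493) was lost in 14 of 19 alternatives. The RNF2 shRNA1 calls of NSD2 (log2 0.14) and DOT1L (log2 0.16) were lost with the pairs summed.

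NSD1, a close relative of NSD2 whose loss causes an overgrowth syndrome, stood at 246 and 243 CPM in Scramble, 189 and 193 in RNF2 shRNA1, 267 and 281 in the libraries labelled RNF2 shRNA2, 239.8 and 232 with PRT4165 and 181 and 183 with GW-516. It fell in RNF2 shRNA1 (log2 -0.36, SE 0.031, edgeR adjusted p = 3.5e-10). It was lower with GW-516 as well (log2 -0.43, edgeR adjusted p = 1.4e-11). NSD3, the third gene of the family, fell with GW-516 (log2 -0.33, edgeR adjusted p = 4.9e-08) and rose slightly in RNF2 shRNA1 (log2 0.17), a call lost with the pairs summed. SETD2, the enzyme that trimethylates H3K36 on transcribed genes, was called with PRT4165 alone among the comparisons with Scramble (log2 0.12), and that call was lost with the pairs summed and without Scramble replicate 1 or PRT4165 replicate 1. DOT1L (ENSG00000104885.12, chr19:2164148-2232577, forward strand, GRCh37) stood at 68.3 and 68.2 CPM in Scramble, 75.8 and 76.7 in RNF2 shRNA1, 92.1 and 91.7 in the libraries labelled RNF2 shRNA2, 89.1 and 102 with PRT4165 and 79.9 and 78.03 with GW-516, with both Scramble libraries lowest. It rose 1.396-fold with PRT4165 (log2 0.48, SE 0.045, edgeR adjusted p = 1.1e-08) and 1.35-fold in the libraries labelled RNF2 shRNA2 (log2 0.43, edgeR adjusted p = 6.2e-08).

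The histone demethylases held the largest change of any member against Scramble, that of KDM7A in RNF2 shRNA1. Of 11 tested, 7 rose and 3 fell in RNF2 shRNA1, 6 rose and 3 fell in the libraries labelled RNF2 shRNA2, 5 rose and 2 fell with PRT4165, and 6 rose and 2 fell with GW-516. KDM7A (ENSG00000006459.6, chr7:139784546-139876835, reverse strand, GRCh37), the demethylase of lysine 9 and lysine 27, stood at 15.2 and 16.1 CPM in Scramble, 53.0 and 54.5 in RNF2 shRNA1, 20.5 and 21.6 in the libraries labelled RNF2 shRNA2, 23.6 and 22.3 with PRT4165 and 25.1 and 25.5 with GW-516. The RNF2 shRNA1 libraries stood far above all others and the Scramble libraries below all others. The rise was 3.44-fold in RNF2 shRNA1 (log2 1.78, SE 0.054, edgeR adjusted p = 1.4e-18), 1.35-fold in the libraries labelled RNF2 shRNA2 (log2 0.43, SE 0.056, edgeR adjusted p = 8.2e-07), 1.47-fold with PRT4165 (log2 0.56, SE 0.057, edgeR adjusted p = 1.5e-08) and 1.62-fold with GW-516 (log2 0.69, SE 0.056, edgeR adjusted p = 1.0e-10).

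The demethylases of lysine 27, which oppose Polycomb repressive complex 2, were also higher. KDM6B (ENSG00000132510.6, chr17:7743222-7758114, forward strand, GRCh37), also known as JMJD3, stood at 25.1 and 27.7 CPM in Scramble, 37.4 and 39.3 in RNF2 shRNA1, 31.3 and 32.4 in the libraries labelled RNF2 shRNA2, 32.8 and 35.7 with PRT4165 and 44.95 and 45.5 with GW-516. The GW-516 libraries were highest and the Scramble libraries lowest. The rise was 1.71-fold with GW-516 (log2 0.78, SE 0.054, edgeR adjusted p = 6.7e-12), with log2 0.54 in RNF2 shRNA1, 0.27 in the libraries labelled RNF2 shRNA2 and 0.37 with PRT4165. KDM6A (ENSG00000147050.10, chrX:44732757-44971847, forward strand, GRCh37), also known as UTX, stood at 25.5 and 22.97 CPM in Scramble, 33.7 and 34.3 in RNF2 shRNA1, 29.9 and 29.3 in the libraries labelled RNF2 shRNA2, 26.8 and 27.1 with PRT4165 and 29.9 and 31.6 with GW-516. Its Scramble libraries were again lowest, with log2 0.49 in RNF2 shRNA1, 0.29 in the libraries labelled RNF2 shRNA2, 0.15 with PRT4165 and 0.34 with GW-516, all called. The PRT4165 call of KDM6A was lost in DESeq2, with the pairs summed, and without Scramble replicate 2 or either PRT4165 library.

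**Figure D3:**
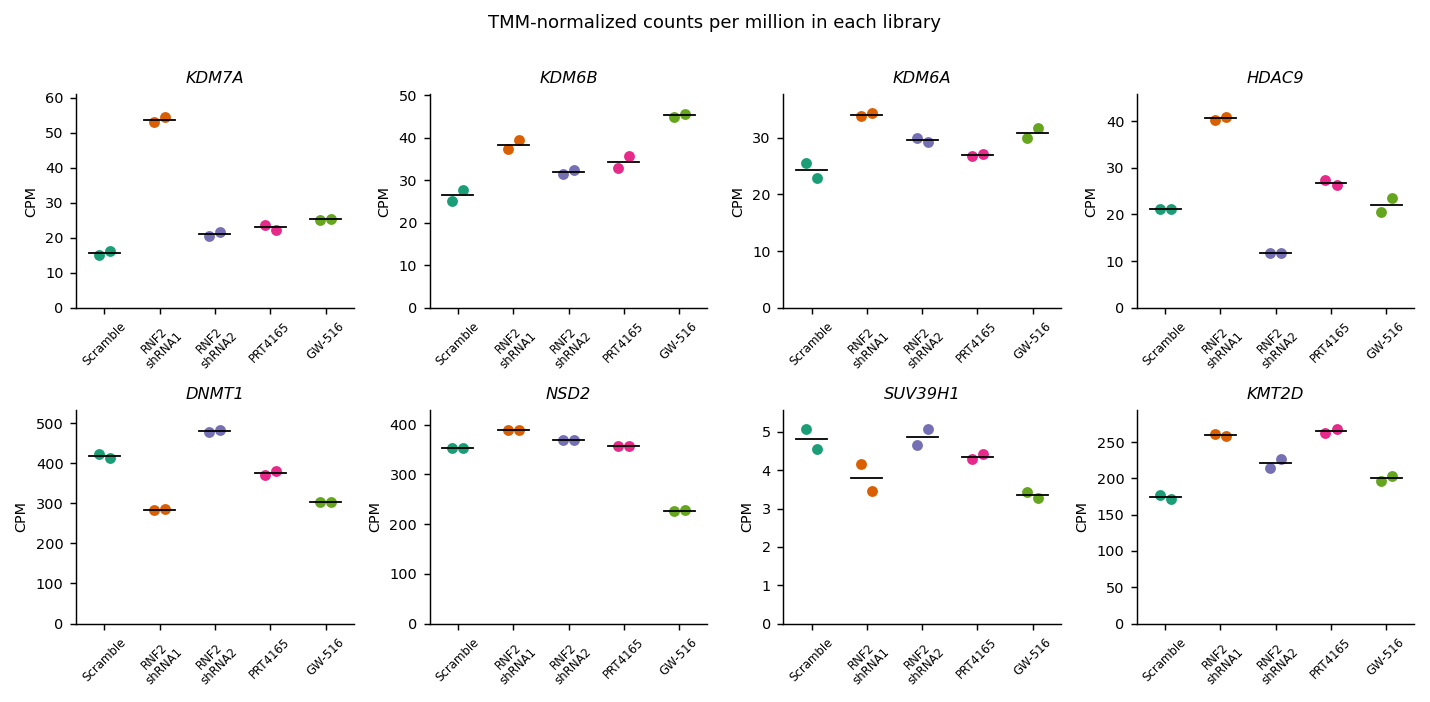
TMM-normalized CPM (vertical axes, each from 0) of KDM7A, KDM6B, KDM6A, HDAC9, DNMT1, NSD2, SUV39H1 and KMT2D in every library; each point is a library and each bar the mean of the 2 libraries of a group. The RNF2 shRNA1 points of KDM7A lie at 53.0 and 54.5 CPM above all others, and the GW-516 points of NSD2 at 226 and 228 CPM below all others.

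KDM1A (ENSG00000004487.11, chr1:23345941-23410182, forward strand, GRCh37), the most abundant demethylase per kb, was lower than Scramble throughout. It stood at 316 and 318 CPM in Scramble, 271 and 269 in RNF2 shRNA1, 248 and 242 in the libraries labelled RNF2 shRNA2, 274 and 263 with PRT4165 and 235 and 239.9 with GW-516, so that the Scramble libraries lay above the other 8. The fall was 1.29-fold in the libraries labelled RNF2 shRNA2 (log2 -0.37, SE 0.029, edgeR adjusted p = 1.5e-10), 1.18-fold with PRT4165 (log2 -0.24, SE 0.029, edgeR adjusted p = 2.5e-07), 1.17-fold in RNF2 shRNA1 (log2 -0.23) and 1.33-fold with GW-516 (log2 -0.41). KDM1B, its paralog, rose in RNF2 shRNA1 (log2 0.50) and fell in the libraries labelled RNF2 shRNA2 (log2 -0.17), with PRT4165 (log2 -0.22) and with GW-516 (log2 -0.40). Of the lysine 9 and lysine 36 demethylases of the KDM4 family, KDM4A rose in RNF2 shRNA1 (log2 0.32), KDM4C rose there as well (log2 0.23), and KDM4B fell there (log2 -0.27) and rose with GW-516 (log2 0.33). KDM4A was also called higher with GW-516 (log2 0.16) and KDM4B with PRT4165 (log2 0.22). In the libraries labelled RNF2 shRNA2 both were called higher (log2 0.19 and 0.16). That KDM4B call and the GW-516 call of KDM4A were lost with the pairs summed, the latter also without Scramble replicate 1. KDM5A, an H3K4 demethylase, stood between 52.6 and 55.2 CPM in the group means and was called in none of the 6 comparisons, of which GW-516 against PRT4165 gave log2 0.009, 95% interval -0.078 to 0.10. KDM5B, its relative, was called higher in RNF2 shRNA1 (log2 0.23) and lower in the libraries labelled RNF2 shRNA2 (log2 -0.13), the second call lost with the pairs summed.

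The deacetylases changed in both directions. The class I genes HDAC1, HDAC2 and HDAC3, nuclear enzymes of corepressor complexes, were lower in RNF2 shRNA1. HDAC8, also of class I, was called lower there too, a call lost in 10 of 20 alternatives. Of the class II genes, HDAC5, HDAC6 and HDAC9 were higher there, HDAC4 was lower and HDAC7 was not called (log2 -0.067). Of 9 tested, 3 rose and 5 fell in RNF2 shRNA1, 1 rose and 3 fell in the libraries labelled RNF2 shRNA2, 2 rose and 2 fell with PRT4165, and 1 rose and 4 fell with GW-516. HDAC9 (ENSG00000048052.16, chr7:18126572-19036993, forward strand, GRCh37), a class IIa enzyme that shuttles between nucleus and cytoplasm, stood at 21.2 and 21.1 CPM in Scramble, 40.2 and 40.9 in RNF2 shRNA1, 11.7 and 11.6 in the libraries labelled RNF2 shRNA2, 27.3 and 26.2 with PRT4165 and 20.6 and 23.6 with GW-516. The RNF2 shRNA1 libraries were highest and those labelled RNF2 shRNA2 lowest, with no overlap with any other group. HDAC9 was 1.92-fold higher in RNF2 shRNA1 (log2 0.94, SE 0.059, edgeR adjusted p = 1.1e-12) and 1.81-fold lower in the libraries labelled RNF2 shRNA2 (log2 -0.86, SE 0.064, edgeR adjusted p = 7.3e-11), and with GW-516 it gave log2 0.062, 95% interval -0.062 to 0.19.

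HDAC6, a mainly cytoplasmic enzyme that deacetylates tubulin, stood at 16.6 and 16.5 CPM in Scramble, 26.9 and 27.5 in RNF2 shRNA1, 14.4 and 15.96 in the libraries labelled RNF2 shRNA2, 16.7 and 17.4 with PRT4165 and 14.6 and 14.3 with GW-516. It rose 1.64-fold in RNF2 shRNA1 (log2 0.72, SE 0.062, edgeR adjusted p = 3.7e-10). HDAC5, another class IIa gene, rose from 28.3 and 30.03 CPM in Scramble to 46.97 and 47.04 in RNF2 shRNA1 (log2 0.69, edgeR adjusted p = 9.2e-12). HDAC2 stood at 296 and 303 CPM in Scramble, 260.2 and 259 in RNF2 shRNA1, 296 and 301 in the libraries labelled RNF2 shRNA2, 258 and 249 with PRT4165 and 224 and 221 with GW-516. Its Scramble libraries overlapped those labelled RNF2 shRNA2 and lay above the rest, with falls of 1.18-fold with PRT4165 (log2 -0.24, SE 0.029, edgeR adjusted p = 1.8e-07) and 1.35-fold with GW-516 (log2 -0.43, edgeR adjusted p = 3.3e-12). HDAC1 fell by 0.29 on the log2 scale in RNF2 shRNA1 and by 0.29 with GW-516, and HDAC3, the catalytic subunit of NCOR complexes, fell by 0.35 in RNF2 shRNA1. The RNF2 shRNA1 calls of HDAC4 (log2 -0.14) and HDAC8 (log2 -0.15) were lost in 17 and 10 of 20 alternatives, RLE size factors and DESeq2 among them. HDAC7 was called in the libraries labelled RNF2 shRNA2 alone among the comparisons with Scramble (log2 -0.22).

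Among the enzymes of DNA methylation, DNMT1 was lower in RNF2 shRNA1 and with GW-516 and DNMT3B, a de novo methyltransferase, was higher in 3 of the groups. Of 6 tested, 2 rose and 2 fell in RNF2 shRNA1, 3 rose and 2 fell in the libraries labelled RNF2 shRNA2, 3 rose and 1 fell with PRT4165, and 1 rose and 2 fell with GW-516. DNMT1 (ENSG00000130816.10, chr19:10244021-10341962, reverse strand, GRCh37), which copies methylation onto newly made DNA strands, stood at 423 and 414 CPM in Scramble, 284 and 285 in RNF2 shRNA1, 478 and 483 in the libraries labelled RNF2 shRNA2, 372 and 380.3 with PRT4165 and 303 and 303 with GW-516. No group overlapped another. DNMT1 was 1.47-fold lower in RNF2 shRNA1 (log2 -0.56, SE 0.027, edgeR adjusted p = 6.4e-15), 1.38-fold lower with GW-516 (log2 -0.47, edgeR adjusted p = 1.8e-13), and 1.15-fold higher in the libraries labelled RNF2 shRNA2 (log2 0.20, edgeR adjusted p = 1.0e-06). The smaller fall with PRT4165 (log2 -0.15) was lost with the pairs summed.

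DNA replication genes were measured beside DNMT1, whose transcript is known to rise in S phase. Of 12 such genes (MCM2 to MCM7, PCNA, RRM2, TYMS, CDC6, CDT1 and GINS2), 12 fell in RNF2 shRNA1 (median log2 -0.71), 12 with PRT4165 (median log2 -0.35) and 12 with GW-516 (median log2 -0.66), and 0 rose and 4 fell in the libraries labelled RNF2 shRNA2 (median log2 -0.076), where DNMT1 itself rose. The part of cell-cycle state in the members' values was not tested. DNMT3B stood at 29.6 and 28.98 CPM in Scramble, 29.8 and 30.6 in RNF2 shRNA1, 36.1 and 38.9 in the libraries labelled RNF2 shRNA2, 39.7 and 40.1 with PRT4165 and 37.3 and 36.6 with GW-516, and rose most with PRT4165 (log2 0.45, edgeR adjusted p = 5.2e-08). DNMT3A, the other de novo methyltransferase, was called higher with PRT4165 (log2 0.28), and its calls in the hairpin groups (log2 0.19 and -0.18) were lost with the pairs summed.

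The 3 TET genes differed from each other. TET1 (ENSG00000138336.8, chr10:70320413-70454239, forward strand, GRCh37) stood at 13.4 and 13.4 CPM in Scramble, 9.49 and 9.36 in RNF2 shRNA1, 9.11 and 10.1 in the libraries labelled RNF2 shRNA2, 15.4 and 14.6 with PRT4165 and 14.6 and 15.2 with GW-516. All 4 hairpin libraries against RNF2, as labelled, lay below the other 6. TET1 fell 1.42-fold in RNF2 shRNA1 (log2 -0.51, SE 0.075, edgeR adjusted p = 3.0e-06) and 1.39-fold in the libraries labelled RNF2 shRNA2 (log2 -0.47, SE 0.073, edgeR adjusted p = 9.7e-06), and was not called with PRT4165 (log2 0.17, 95% interval 0.021 to 0.31) or GW-516 (log2 0.15, 95% interval 0.008 to 0.30). TET3 stood at 34.1 and 32.96 CPM in Scramble, 41.05 and 39.6 in RNF2 shRNA1, 44.2 and 46.5 in the libraries labelled RNF2 shRNA2, 36.8 and 36.6 with PRT4165 and 30.3 and 29.8 with GW-516, with a 1.35-fold rise in the libraries labelled RNF2 shRNA2 (log2 0.44, SE 0.046, edgeR adjusted p = 2.8e-08). The smaller TET3 calls with PRT4165 and GW-516 were lost with the pairs summed. TET2, often mutated in blood cancers, was called in none of the 6 comparisons, and RNF2 shRNA1 gave log2 -0.032, 95% interval -0.14 to 0.081.

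The acetyltransferases changed in both directions. Of 5 tested, 1 rose and 0 fell in RNF2 shRNA1, 1 rose and 1 fell in the libraries labelled RNF2 shRNA2, 3 rose and 0 fell with PRT4165, and 1 rose and 2 fell with GW-516. KAT6B rose in RNF2 shRNA1, from 183 and 183 to 234 and 225 CPM (log2 0.33, edgeR adjusted p = 1.6e-09), and KAT6A, its paralog, fell with GW-516, from 69.1 and 67.2 to 53.5 and 53.04 CPM (log2 -0.36, edgeR adjusted p = 3.0e-08). CREBBP rose in the libraries labelled RNF2 shRNA2, from 95.4 and 95.8 to 122 and 121 CPM (log2 0.35, edgeR adjusted p = 3.6e-09). EP300, its close relative and fellow coactivator, was called only with PRT4165 against Scramble (log2 0.10), a call lost in 6 of 20 alternatives, and RNF2 shRNA1 gave log2 0.025, 95% interval -0.053 to 0.10. The PRT4165 calls of CREBBP and KAT6B (log2 0.14 and 0.13) were lost with the pairs summed, as was the GW-516 rise of CREBBP (log2 0.16). KAT2B was called lower in the libraries labelled RNF2 shRNA2 (log2 -0.22) and with GW-516 (log2 -0.15). The first of these KAT2B calls was lost without Scramble replicate 2. The second was lost in 10 of 20 alternatives, RLE size factors and DESeq2 among them.

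The hairpin groups were then compared with each other. The fold changes of this contrast have no Scramble library on either side, but its p-values use a spread pooled over the 10 libraries, Scramble included. HDAC9 and KDM7A were lower in the libraries labelled RNF2 shRNA2 than in RNF2 shRNA1, and DNMT1 and NSD1 higher. Of 48 members 42 passed the threshold, 20 higher and 22 lower, against 59.2% of all genes (29.9% higher, 29.2% lower) and 78.3% of genes at 10 CPM or more, where 41 of 47 members passed. With the pairs summed, 34 were called. HDAC9 was 3.47-fold lower (log2 -1.80, SE 0.061, edgeR adjusted p = 7.5e-18) and KDM7A 2.55-fold lower (log2 -1.35, SE 0.052, edgeR adjusted p = 5.8e-17). These were the only called members at 2-fold or more, a size called in 11.2% of all genes, and 6 members were called at 1.5-fold or more, beside 23.0%. The groups did not overlap for 47 members, beside 77.2% of all genes. HDAC5 was 1.79-fold lower (log2 -0.84, SE 0.048, edgeR adjusted p = 1.3e-13), and HDAC6 (log2 -0.84) and KDM1B (log2 -0.66) were lower too. DNMT1 was 1.69-fold higher (log2 0.76, SE 0.027, edgeR adjusted p = 1.3e-17), NSD1 1.43-fold higher (log2 0.52, SE 0.031, edgeR adjusted p = 2.5e-13) and HDAC3 1.37-fold higher (log2 0.46, SE 0.039, edgeR adjusted p = 2.4e-10). By role, demethylases were called higher in 2 and lower in 8 of 11, deacetylases higher in 5 and lower in 4 of 9, and H3K4 methyltransferases higher in 3 and lower in 3 of 7. All 12 replication genes were higher in the libraries labelled RNF2 shRNA2 than in RNF2 shRNA1 (median log2 0.54), and their part in the difference was not tested.

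**Figure D4:**
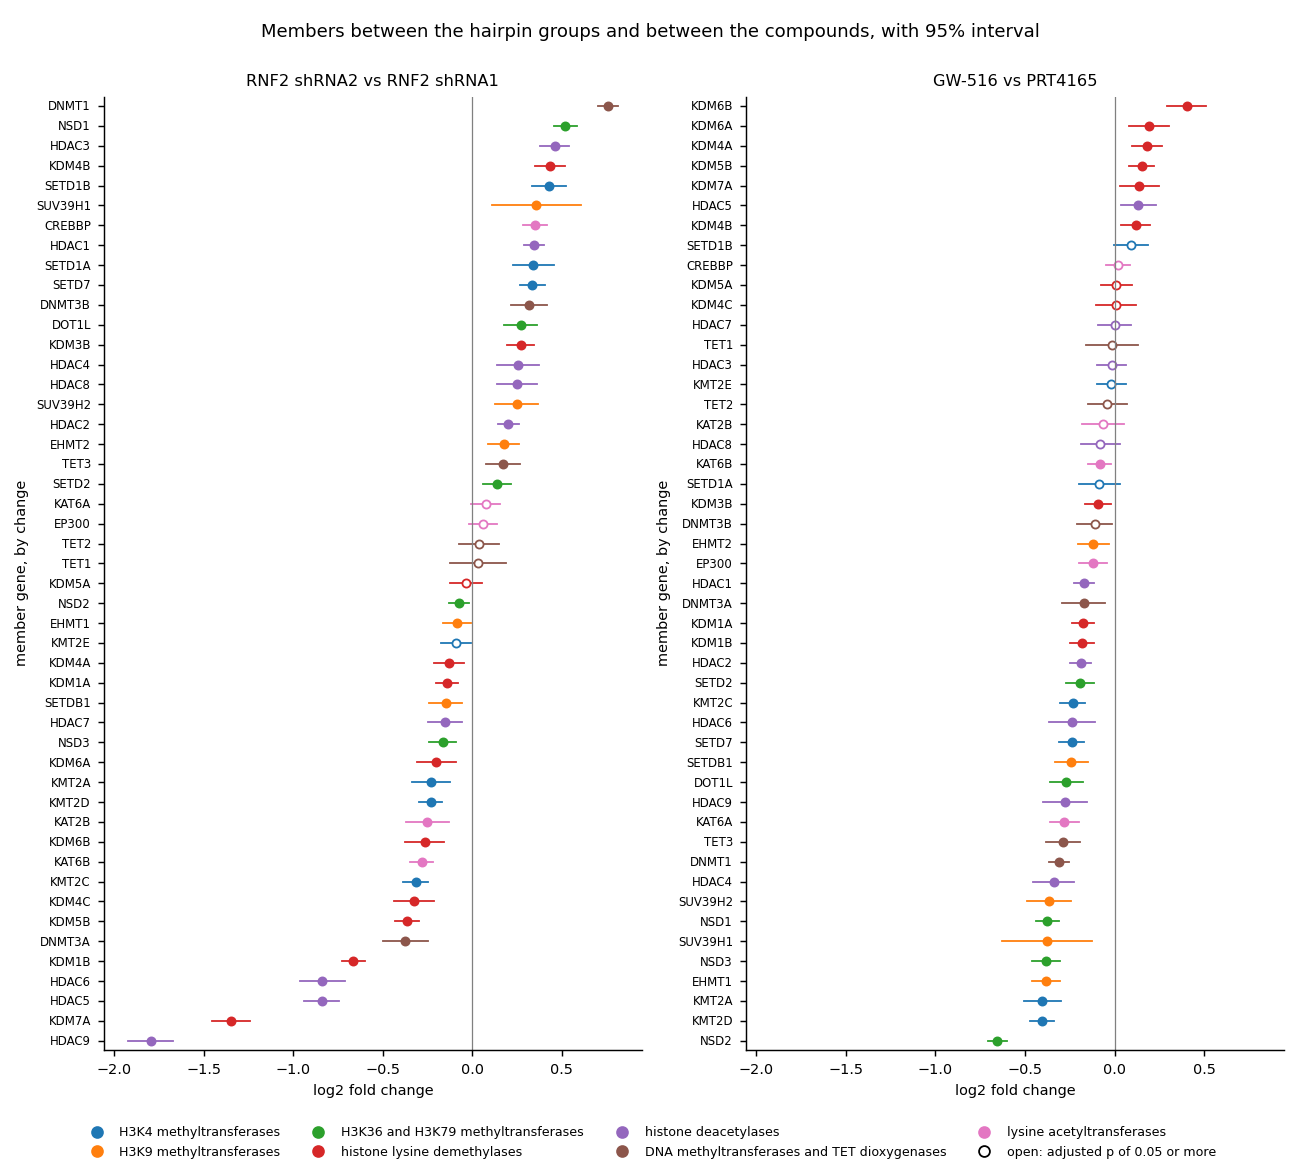
Log2 fold change (horizontal axes) of each tested member between the libraries labelled RNF2 shRNA2 and RNF2 shRNA1 (left) and between GW-516 and PRT4165 (right), ordered by size in each panel, with 95% intervals; colours mark role groups and open points an adjusted p of 0.05 or more. HDAC9 and KDM7A lie farthest below 0 on the left at -1.80 and -1.35, and on the right demethylases are at the upper end and NSD2 at the lower end at -0.65.

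The compounds were compared with each other at the same 48 hours, with doses not given in the labels. Most members that differed were lower with GW-516 than with PRT4165, and the members that were higher were mainly demethylases. Of 48 members 35 passed the threshold, 7 higher and 28 lower, against 41.1% of all genes (18.1% higher, 23.0% lower) and 58.5% of genes at 10 CPM or more, of which 19.8% were higher and 38.7% lower and where 34 of 47 members passed. With the pairs summed, 22 were called, 1 higher and 21 lower. NSD2 was 1.57-fold lower with GW-516 (log2 -0.65, SE 0.026, edgeR adjusted p = 1.1e-15), the only called member at 1.5-fold or more, a size called in 8.25% of all genes, and 0 members reached 2-fold at either an adjusted or an unadjusted edgeR p below 0.05, beside 4.38%. The groups did not overlap for 40 members, beside 69.5% of all genes. KMT2D was 1.32-fold lower (log2 -0.40, SE 0.032, edgeR adjusted p = 2.7e-10) and KMT2A 1.32-fold lower (log2 -0.40, SE 0.050, edgeR adjusted p = 4.2e-07). KDM6B was 1.32-fold higher (log2 0.40, SE 0.052, edgeR adjusted p = 8.8e-07), the higher call that held with the pairs summed. KDM6A (log2 0.19, SE 0.053) and KDM4A (log2 0.18, SE 0.041) were higher at an edgeR adjusted p of 0.00557 and 8.6e-04, and those calls were lost with the pairs summed (edgeR adjusted p = 0.0759 and 0.0511), that of KDM6A also without GW-516 replicate 2 (0.0951). By role, all 5 H3K9 and all 5 H3K36 and H3K79 methyltransferases were called lower, with medians of log2 -0.36 and -0.38, beside 4 of 7 H3K4 methyltransferases, 5 of 9 deacetylases, 3 of 6 DNA-modifying enzymes and 3 of 5 acetyltransferases. The calls of EHMT2 (log2 -0.12) and SUV39H1 (log2 -0.38) were lost in 10 and 5 of 20 alternatives, DESeq2 and the pairs summed among them. Of the 11 demethylases, 6 were called higher and 3 lower. The calls of KDM7A (log2 0.14) and KDM3B (log2 -0.094) were lost in 9 and 13 of 20 alternatives. Those of KDM4B (log2 0.12) and KDM5B (log2 0.15) were lost with the pairs summed, that of KDM4B also without PRT4165 replicate 1 or GW-516 replicate 1. The median over all members was log2 -0.15, against -0.0019 over all genes. The 12 replication genes were all lower with GW-516 as well (median log2 -0.30).

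Direction moved with summed exon length in some of these comparisons. The members are long, with a median summed exon length of 9.51 kb, and 35 of the 48 tested exceed 7 kb. Of the 3482 genes over 7 kb, 14.9% were called higher and 40.9% lower with GW-516 than with PRT4165 (median log2 -0.083), while genes under 2 kb had 14.0% higher and 6.76% lower (median log2 0.090). Among the 35 long members, 14.3% were higher and 62.9% lower. With PRT4165 against Scramble, 35.9% of genes over 7 kb were higher and 20.9% lower, beside 51.4% and 11.4% of the long members. In RNF2 shRNA1 these shares were 40.3% and 29.9% for all long genes and 48.6% and 25.7% for the long members. In the libraries labelled RNF2 shRNA2 they were 31.9% and 26.0% for all long genes and 42.9% and 14.3% for the long members. With GW-516 against Scramble they were 32.1% and 36.9% for all long genes and 31.4% and 37.1% for the long members. The part of length in the members' differences was not tested.

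**Figure D5:**
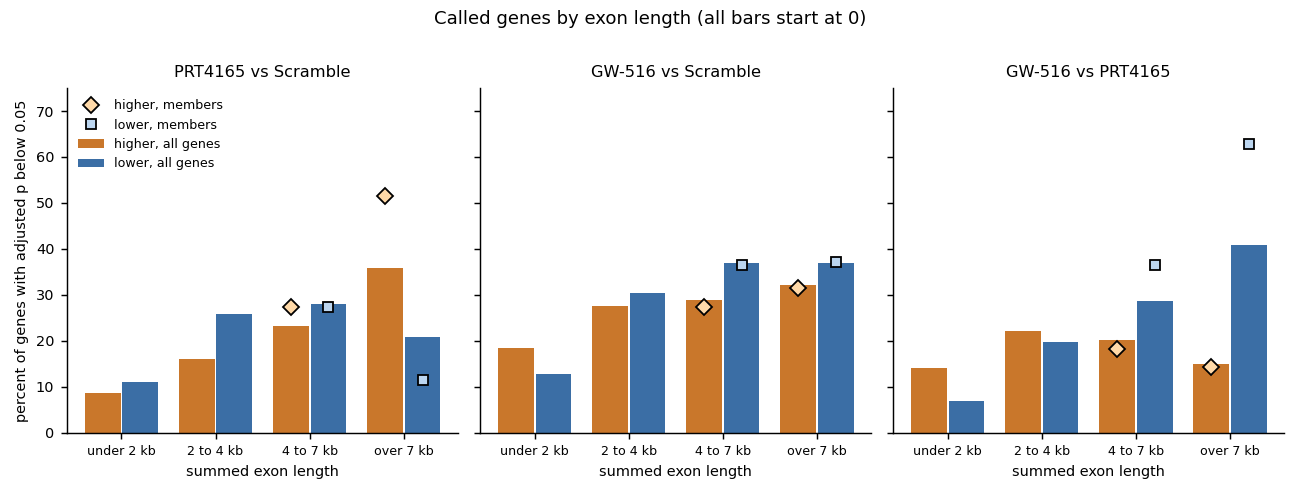
Percent of genes called (vertical axis, from 0) by summed exon length in 3 comparisons; bars are all genes tested, orange higher and blue lower, and diamonds and squares are the members in bins of 11 (4 to 7 kb) and 35 (over 7 kb) members, while the 2 members between 2 and 4 kb are not drawn. Over 7 kb, 62.9% of members and 40.9% of all genes were lower with GW-516 than with PRT4165.

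Related modifying enzymes outside the 50 showed changes in both directions. Of 47 tested on a list of 49 (SETD, SMYD, PRMT and KMT5 methyltransferases, further demethylases and deacetylases including the sirtuins, acetyltransferases, TDG and DNMT3L), 13 rose and 21 fell in RNF2 shRNA1, 15 rose and 10 fell in the libraries labelled RNF2 shRNA2, 9 rose and 19 fell with PRT4165, and 9 rose and 27 fell with GW-516. The list's medians were log2 -0.051, 0.061, -0.082 and -0.19. Its shares called were 72.3%, 53.2%, 59.6% and 76.6%, against 54.7%, 42.1%, 41.6% and 55.5% of all genes tested. Among genes at 10 CPM or more, 74.6%, 58.7%, 60.2% and 74.5% were called. With GW-516, 27.8% of those genes were higher and 46.6% lower. The 2 largest called changes of the list in each direction are named here. In RNF2 shRNA1 they were those of KAT14, an acetyltransferase of the ATAC complex (log2 -1.08), PRMT6, an arginine methyltransferase (log2 -0.80), NCOA3, a nuclear receptor coactivator (log2 0.80) and JMJD1C (log2 0.51). In the libraries labelled RNF2 shRNA2 they were TDG, the glycosylase that removes oxidized methylcytosine (log2 -0.45), HDAC11 (log2 -0.44), SMYD5 (log2 0.43) and ASH1L, an H3K36 methyltransferase (log2 0.36). With PRT4165 they were TDG (log2 -0.36), PRMT5 (log2 -0.30), SETDB2 (log2 0.28) and KDM3A, an H3K9 demethylase (log2 0.27). With GW-516 they were KAT14 (log2 -0.65), KMT5A, the H4K20 monomethyltransferase (log2 -0.56), KDM3A (log2 0.56) and SIRT7 (log2 0.44).

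Between the hairpin groups, 23 of the 47 related enzymes were higher and 15 lower in the libraries labelled RNF2 shRNA2, led by KAT14 (log2 0.98) and PRMT6 (log2 0.86) upward and NCOA3 (log2 -0.88) and KAT8 (log2 -0.52) downward. Between the compounds, 6 were higher and 17 lower with GW-516, led by JMJD6 (log2 0.36) and KDM3A (log2 0.28) upward and KAT14 (log2 -0.45) and KMT5A (log2 -0.39) downward. Of the related enzymes, 80.9% were called between the hairpin groups and 48.9% between the compounds. Of all genes tested 59.2% and 41.1% were called, and of genes at 10 CPM or more 78.3% and 58.5%. Partner subunits of the member enzymes, such as WDR5, RCOR1, SIN3A, MTA1 and TRIM28, numbered 48 tested of 50 listed. Of these 14 rose and 21 fell in RNF2 shRNA1, 15 rose and 9 fell in the libraries labelled RNF2 shRNA2, 6 rose and 16 fell with PRT4165, and 4 rose and 26 fell with GW-516. Their medians were log2 -0.072, 0.042, -0.071 and -0.15, beside 0.029, 0.059, 0.10 and 0.0044 for the member enzymes themselves. In each of these comparisons with Scramble, the partners' share called was below that of genes at 10 CPM or more. Those genes had 74.6%, 58.7%, 60.2% and 74.5% called, in the same order. With GW-516, 27.8% of them were higher and 46.6% lower.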

How the data were processed

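RNA-seq was analysed in 10 PC3 libraries, 2 in each of 5 groups taken from the labels' titles. The authors deposited raw, unnormalized counts, 1 table per library. Per the file headers, they were made by featureCounts 1.4.3-p1 on GENCODE 18 genes with strand option 2 and without a read-pair option. Both ends of a fragment therefore count, which understates counting noise, and 62.7% to 69.6% of values between 1 and 10 were even. The submitters' processing notes name hg19 (GRCh37), STAR and DESeq2 1.8.1, and their roles are not given in the sources used here. Per the file headers the libraries labelled RNF2 shRNA2 carry the code 20155. Symbols came from a GENCODE table, which named 51488 of 57445 identifiers (89.6%).

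Tests used edgeR 4.0.16 in R 4.3.3: TMM factors, filterByExpr with a minimum count of 10, a coefficient for each group fitted to the 10 libraries together (residual degrees of freedom, 5), and robust two-sided quasi-likelihood F tests, with Benjamini-Hochberg adjustment over 18478 genes in each of 6 comparisons and a threshold of 0.05. The common biological coefficient of variation was 0.0340. CPM per kb divides CPM by the summed exon length in the count tables. Members given with full statistics were the 3 largest called increases and decreases per comparison with groups that did not overlap, and any called change of 2-fold; from the related enzymes, up to 2 each way. Members, lists and tests were chosen with earlier results of these data known. As alternatives, DESeq2 1.42.0, limma-voom (limma 3.58.1), RLE size factors, other filters, the compared groups alone, a replicate block, stricter thresholds, each library left out, near-identical pairs summed to give 7 samples, no libraries labelled RNF2 shRNA2, and thinned counts were run. Figures were drawn with matplotlib 3.10.9. Sums over 2 other lists of cell type markers are not reported here.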

Additional observations from a re-analysis of the deposited data

Results flagged for a closer look

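The results below stand out because a member was called in opposite directions against Scramble in the groups compared. The difference between those groups also passed the edgeR threshold. Opposite called effects make that outcome likely beforehand, so its adjusted p is no separate support. Both effects share the Scramble libraries. The fold change of the direct difference leaves them out, but its p-value uses a spread pooled over the 10 libraries, Scramble included. Between the hairpin groups (libraries labelled RNF2 shRNA2 minus RNF2 shRNA1), HDAC9 differed by log2 -1.80 (0.94 in RNF2 shRNA1, -0.86 in the libraries labelled RNF2 shRNA2, edgeR adjusted p of the difference = 7.5e-18), with each library of the pair on its side. HDAC5 differed by log2 -0.84 (0.69 and -0.15, edgeR adjusted p = 1.3e-13), and its call in the libraries labelled RNF2 shRNA2 was lost without Scramble replicate 2, without RNF2 shRNA2 replicate 2 and with the pairs summed. KDM1B differed by log2 -0.66 (0.50 and -0.17, edgeR adjusted p = 4.7e-15). DNMT3A differed by log2 -0.38 (0.19 and -0.18, edgeR adjusted p = 8.0e-06) and KDM5B by log2 -0.36 (0.23 and -0.13, edgeR adjusted p = 5.5e-10). In the other direction DNMT1 differed by log2 0.76 (-0.56 and 0.20, edgeR adjusted p = 1.3e-17) and NSD1 by log2 0.52 (-0.36 and 0.16, edgeR adjusted p = 2.5e-13). HDAC3 differed by log2 0.46 (-0.35 and 0.11, edgeR adjusted p = 2.4e-10), where the call in the libraries labelled RNF2 shRNA2 was lost in 8 of 19 alternatives, the pairs summed and either of its libraries left out among them. KDM4B differed by log2 0.43 (-0.27 and 0.16, edgeR adjusted p = 8.4e-10). KDM3B differed by log2 0.27 (-0.089 and 0.18, edgeR adjusted p = 4.1e-07), where the RNF2 shRNA1 call was lost in 14 of 20 alternatives, DESeq2 and RLE size factors among them. The calls of KDM3B, KDM4B, KDM5B, NSD1 and DNMT3A in the libraries labelled RNF2 shRNA2, and that of DNMT3A in RNF2 shRNA1, were lost with the pairs summed. The DNMT3A calls were also lost without Scramble replicate 2 or RNF2 shRNA1 replicate 2 in RNF2 shRNA1, and in DESeq2 or without Scramble replicate 1 in the libraries labelled RNF2 shRNA2.

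Between the compounds (GW-516 minus PRT4165), EHMT1 differed by log2 -0.38 (0.20 with PRT4165, -0.19 with GW-516, edgeR adjusted p of the difference = 9.6e-09) and TET3 by log2 -0.29 (0.13 and -0.16, edgeR adjusted p = 1.8e-05). Both TET3 calls and the GW-516 call of EHMT1 were lost with the pairs summed, and the TET3 calls also without Scramble replicate 2 or PRT4165 replicate 1 (PRT4165) and without Scramble replicate 1 or GW-516 replicate 2 (GW-516).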

How the results depend on the processing

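Counts of called members in RNF2 shRNA1, the libraries labelled RNF2 shRNA2, PRT4165 and GW-516 against Scramble, between the hairpin groups and between the compounds, in this order, were 36, 29, 28, 33, 42 and 35. At least 1.5-fold left 4, 1, 1, 3, 6 and 1, and at least 2-fold left 1, 0, 0, 0, 2 and 0; the same members at 2-fold had an unadjusted edgeR p below 0.05. With near-identical pairs summed, 19 were called in the libraries labelled RNF2 shRNA2, 17 with PRT4165 and 22 between the compounds, and in these comparisons all genes called fell from 7772 to 4902, 7695 to 4911 and 7594 to 4555. Leaving out each library in turn gave 31 to 35, 25 to 32, 24 to 30, 28 to 34, 38 to 43 and 26 to 36 members. Counts under the other alternatives lay within 1.5 times the main ones. Of the calls, 26 of 36, 18 of 29, 17 of 28, 25 of 33, 33 of 42 and 22 of 35 held in every alternative other than the fold minimums and the stricter p, and none turned direction.

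The correlation between groups of replicate deviations over 13104 genes ran from -0.121 to 0.0213. Replicates of GW-516, RNF2 shRNA1 and Scramble differed by little more than counting noise, so low values cannot tell whether replicate numbers pair the libraries. The value of -0.121 was that between PRT4165 and the libraries labelled RNF2 shRNA2, the groups whose replicates differed most. With a replicate block 34, 28, 27, 33, 42 and 35 members were called. RLE size factors moved the median of all genes by at most log2 0.0177. SUV39H1, at 4.23 CPM the least abundant tested member, lost its calls in RNF2 shRNA1, between the hairpin groups and between the compounds with the pairs summed. KMT2B and KAT2A had too few counts to test, and the cause was not tested.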
